A study of Mus musculus with 8 samples.

Results

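The genes described here are 44 chromatin regulators with a known part in MLL-rearranged leukaemia. Of these, 42 had a row in the deposited table through their gene symbol in the platform annotation, among 19505 symbols in all, and each is given by 1 row, the one with the highest mean over the 8 arrays. Kmt2a, the mouse MLL gene itself, and Cdk9, the kinase of the elongation factor P-TEFb, were not analysed here. A row was tested if it lay above the median transcript row of its array on at least 3 of the 8 arrays, which kept 40 of the 42 genes and 10293 genes in all. The remaining pair, Kdm2b and Kdm4b, lay above that median on 2 and 0 of the 8 arrays.

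RNA came from leukaemia stem cells of mice, taken as GFP-positive granulocyte-macrophage progenitors (GMPs) from the marrow of transplanted recipients. The groups were 3 arrays from Pik3ca-/- cells (KO) and 5 arrays from WT cells, and the leukaemias of both groups carried MLLAF9, the fusion of MLL with AF9. Pik3ca encodes p110-alpha, a catalytic subunit of PI3K. How Pik3ca was removed, the age of the mice and whether each array came from its own mouse are not stated by the labels, so the p-values below speak of the spread among these arrays, which may be technical.

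MLL is a histone methyltransferase that marks active promoters at lysine residues of histone H3. In MLL-rearranged leukaemia its DNA-binding part is joined to a partner such as AF9 that brings in transcription elongation factors and the methyltransferase DOT1L, and the fusion is held on chromatin by menin and LEDGF. Polycomb complexes, the demethylase LSD1 and acetyltransferases such as CBP and p300 also act on chromatin in these cells, and several are needed in models of such leukaemias.

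The deposited values are on a log scale taken as log2 from their range of 1.89 to 18.65, so that a difference of 1 is a 2-fold change, and the median transcript row lay between 5.20 and 5.40 on the 8 arrays. WT array 3 stood apart, with a mean correlation with the other arrays of 0.964 across transcript rows, against 0.985 to 0.987 for the other 7. The comparison was therefore made with and without it, and the plot of differences by role shows both values for each tested gene. All 8 GMP and myeloid progenitor markers listed were above the median row on all 8 arrays, Kit and Mpo among them. Of the markers listed as absent, Il7r was below the median on all 8 arrays, whereas Slc14a1 was above it on all 8. Cd34, which marks GMPs, was 5.63 to 7.81 in KO and 7.24 to 10.9 in WT. Of the megakaryocyte and platelet markers, 4 of 6 were above the median row on all 8 arrays. The summed level of megakaryocyte and platelet markers was 9.13 to 9.30 in KO and 8.93 to 13.8 in WT (log2), with the highest in WT array 1. Of the erythroid markers 1 of 5 was above the median row on all 8 arrays, and their summed level was 7.55 to 8.09 in KO and 7.18 to 10.1 in WT. Of the mast cell, basophil and eosinophil markers 5 of 8 were, at a summed 10.5 to 11.2 in KO and 10.5 to 13.02 in WT, and Prg2, an eosinophil granule gene, was 12.0 and 12.8 on WT arrays 3 and 4. All 8 mature neutrophil markers were above the median row on all 8 arrays, at a summed 19.3 to 19.7 in KO and 19.4 to 19.6 in WT. The GMP markers summed to 19.2 to 19.4 in KO and 19.2 to 19.5 in WT. All 6 monocyte and macrophage markers with a row were above it too, at 15.7 to 16.1 in KO and 15.7 to 16.5 in WT. Among B cell markers 2 of 6 were, among T and NK cell markers 1 of 7 and among stromal markers 1 of 7. The part of such cells in the results below was not tested. In sorted bulk samples fewer cells of a type and less RNA per cell cannot be told apart.

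Of these proteins, MLL and KDM2B bind unmethylated CpG dinucleotides through a CXXC domain, and promoters of chromatin regulators are often CpG-rich. Of the 44 genes, 37 had a promoter window in the RefSeq table (GRCm38.p6), and the first window listed for each gene was read over the 250 bases before the transcription start. These held a median of 23 CpG dinucleotides (quartiles 12 and 31), against a median of 6 (quartiles 2 and 16) over 27025 genes of the table. The windows of Cbx7, Aff1 and Mllt1 are shown because these are the tested genes with the smallest unadjusted p in the KO comparison or with no overlap between groups. They are written 5′ to 3′ on the strand of the gene, with each CpG in capitals, and come from chr15:79932647-79932896 (minus strand) for Cbx7, chr5:103753912-103754161 (plus strand) for Aff1 and chr17:56935389-56935638 (minus strand) for Mllt1.
Cbx7: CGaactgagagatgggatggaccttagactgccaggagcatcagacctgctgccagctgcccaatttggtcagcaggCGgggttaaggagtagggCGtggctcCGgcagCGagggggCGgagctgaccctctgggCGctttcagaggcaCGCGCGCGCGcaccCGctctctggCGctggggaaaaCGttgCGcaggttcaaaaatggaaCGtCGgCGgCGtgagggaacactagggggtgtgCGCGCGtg
Aff1: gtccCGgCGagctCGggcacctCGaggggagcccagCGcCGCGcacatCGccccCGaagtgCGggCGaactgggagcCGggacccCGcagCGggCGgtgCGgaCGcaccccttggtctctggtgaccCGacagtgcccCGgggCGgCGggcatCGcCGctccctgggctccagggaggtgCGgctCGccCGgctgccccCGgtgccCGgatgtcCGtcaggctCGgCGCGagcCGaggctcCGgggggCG
Mllt1: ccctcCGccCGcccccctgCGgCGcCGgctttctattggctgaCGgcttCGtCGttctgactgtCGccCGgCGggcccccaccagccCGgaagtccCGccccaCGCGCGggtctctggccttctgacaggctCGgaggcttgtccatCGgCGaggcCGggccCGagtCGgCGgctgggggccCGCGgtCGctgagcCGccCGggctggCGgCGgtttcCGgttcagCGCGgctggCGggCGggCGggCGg
The Cbx7 window held 23 CpG dinucleotides, the median of the group, whereas Aff1 held 35 and Mllt1 held 37. A FoxO-type motif, GTAAACA on either strand, was searched because PI3K signalling restrains FoxO factors. It was present in 2 of the 37 windows, those of Eed and Brd2, or 5.41%, against 3.09% of all windows, and in none of the 3 shown.

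None of the 40 tested genes passed the test of KO against WT after adjustment over all genes. In limma with Benjamini-Hochberg adjustment over 10293 genes, an adjusted p under 0.05 was reached in KO by 0 of the 40 upward and 0 downward (background 0.0% each way), and the smallest adjusted p among them was 0.999. At an unadjusted p under 0.05 there was 1 of 40, Cbx7, against 2.86% of all tested genes. It was lower in KO, as were 1.39% of all tested genes, while 1.47% were higher. Cbx7 entered the test only through WT arrays, where its row is brighter, so its inclusion depends on the filter and its count supports nothing. With no filter its unadjusted limma p was 0.038. Without WT array 3 there were 0 of 40, against 4.69% of 10155 genes tested then (2.23% higher and 2.46% lower in KO), and without WT array 2 there was again 1, Cbx7, against 2.96%. The KO arrays lay wholly outside the WT range for 2 genes, Aff1 and Mllt1, against 3.1% of all tested genes. Both lay below WT, as did 1.52% of all tested genes, while 1.58% lay above. Without WT array 3 this was so for 3 genes, with Crebbp added and again all below WT, against 5.56% (2.92% below and 2.64% above). Set against 40 genes, these counts of 1, 2 and 3 are few, and they were not tested against the shares of all genes. With another single array left out, the count without overlap was 4 when any 1 KO array was dropped, against 7.62%, 8.49% and 9.41% of all tested genes without KO array 1, 2 and 3. It was 5 without WT array 2, against 5.01%, and 2 without WT array 1, 4 or 5, against 4.87%, 4.78% and 5.01%.

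The difference was above 0 for 26 of the 40 genes, against 55.7% of all tested genes, with a median of 0.12 (quartiles -0.12 and 0.28) beside 0.04 over all tested genes. Without WT array 3 it was above 0 for 20 of 40, against 50.3%, and the median was -0.0059 beside 0.0016. No tested gene of the list differed by more than 1 in either direction with or without WT array 3, but Kdm4c differed by 1.03 without WT array 2. Leaving out 1 array other than WT array 3 moved 28 of the 40 by over 1.5 times or turned their sign. The 95% interval of the difference lay wholly between -1 and 1 for 27 genes with all arrays and for 35 without WT array 3, so for these a 2-fold difference lay outside the interval. The narrowest interval with all arrays was that of Aff1, from -0.67 to 0.11, and the widest that of Kdm5a, from -1.28 to 1.57.

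**Figure D1:**
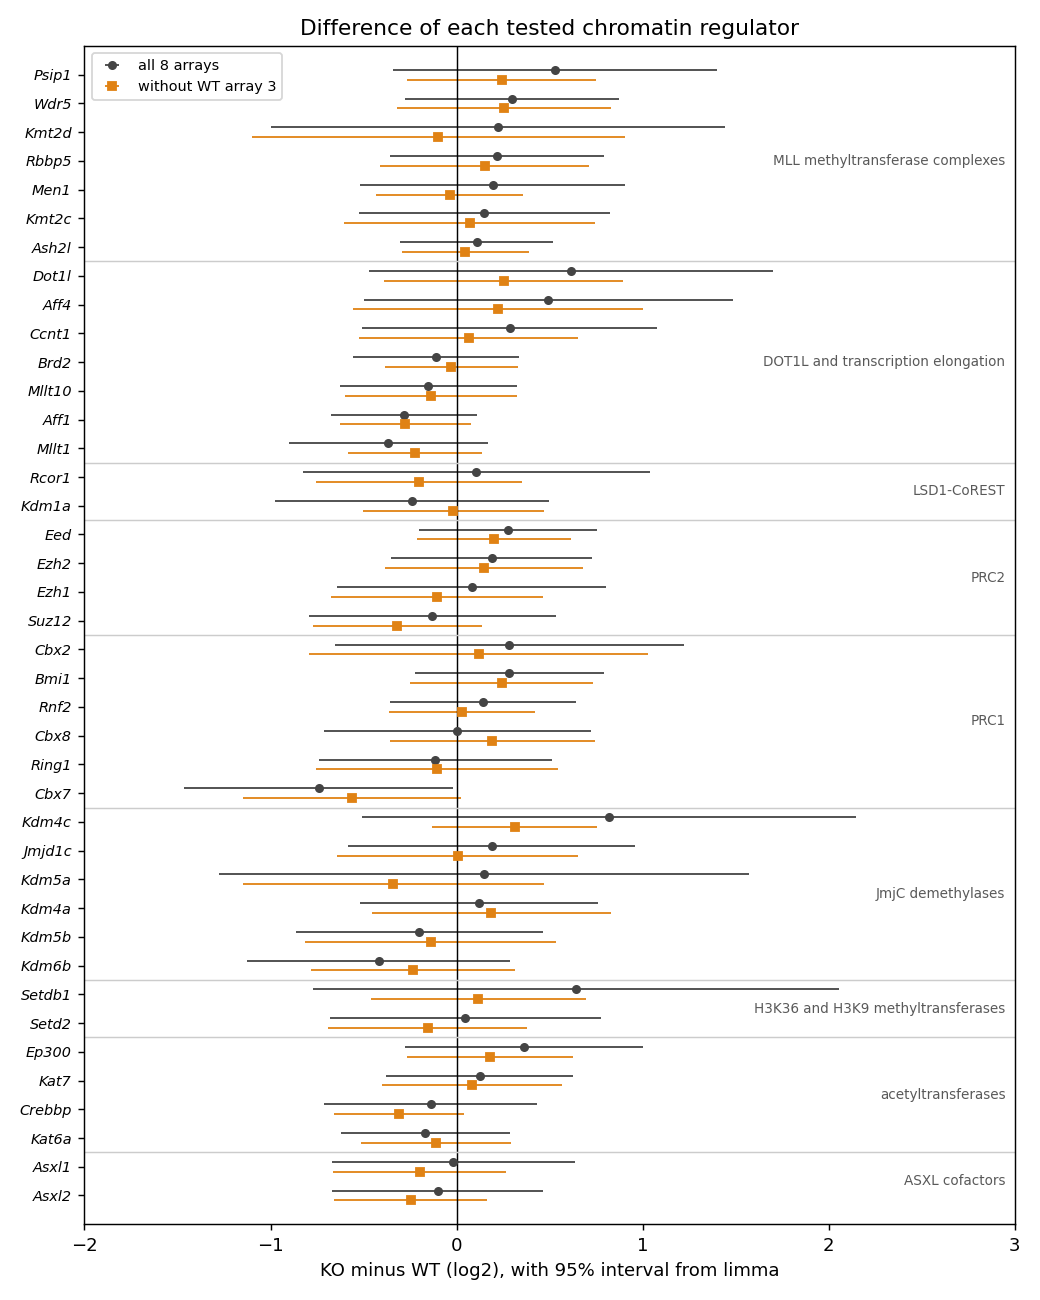
KO minus WT difference (log2) of the 40 tested chromatin regulators by role, with 95% intervals from limma, for all 8 arrays (circles) and without WT array 3 (squares). With all arrays 39 of the 40 intervals contain 0, the exception being Cbx7, and without WT array 3 all 40 do.

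Among the MLL-type methyltransferase complexes 7 genes were tested and 0 passed. All 7 differences were above 0, with a median of 0.22, and 5 were above 0 without WT array 3, with a median of 0.07. On WT array 3 all 7 lay under the average of the 4 remaining WT arrays. Men1, which encodes menin, the scaffold that ties MLL and its fusions to chromatin, was 12.95, 13.29 and 13.09 in KO arrays 1 to 3, against 13.15, 13.37, 11.99, 13.11 and 12.96 in WT arrays 1 to 5. The KO arrays sat inside the WT range, and WT array 3 was the lowest of the 8. The difference was 0.19, or -0.04 once WT array 3 was left out, with a 95% interval of -0.43 to 0.36 in the reduced fit.

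Psip1 encodes LEDGF, the chromatin reader bound by the menin and MLL pair. It was 12.92, 12.69 and 12.51 in the KO arrays, against 12.35, 12.86, 11.03, 12.56 and 12.10 in the WT arrays. The highest value was in KO and the lowest in WT array 3, and the groups overlapped. The KO mean was 12.71 ± 0.21 (SD, n = 3), against a WT mean of 12.18 ± 0.70 (SD, n = 5), a difference of 0.53 within the spread (exact two-sided permutation p = 0.286), and of 0.24 without WT array 3.

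For the core subunits shared by these complexes the groups overlapped. Ash2l averaged 13.02 ± 0.02 (SD, n = 3) in KO arrays, against 12.92 ± 0.16 (SD, n = 5) in WT arrays, Rbbp5 was 10.12 to 10.29 in KO arrays, against 9.51 to 10.50 in WT arrays, and the difference of Wdr5, the subunit that docks the catalytic protein, was 0.30. Kmt2c and Kmt2d, the enhancer-acting relatives of MLL, differed by 0.15 and 0.23. Kmt2d was 11.98, 10.43 and 10.38 in the KO arrays, against 10.38, 11.15, 9.42, 11.04 and 11.54 in the WT arrays, so KO array 1 alone lay above the WT range. Dropping KO array 1 made its difference -0.30, and dropping WT array 3 made it -0.10.

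In the DOT1L and transcription elongation group 7 genes were tested, 0 passed, 3 differences were above 0 and 4 below, with a median of -0.11. It was -0.03 without WT array 3. Dot1l, which methylates lysine in the core of histone H3 and is recruited by the fusion, was 9.93, 9.02 and 9.57 in the KO arrays, against 9.03, 8.98, 7.45, 9.25 and 9.77 in the WT arrays. All values apart from that of WT array 3 fell between 8.98 and 9.93. The difference was 0.61 (exact two-sided permutation p = 0.339), and 0.25 without WT array 3, where the 95% interval was -0.39 to 0.90. Its cofactor gene Mllt10, which encodes AF10, differed by -0.15.

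Aff1 encodes AF4, a scaffold of the super elongation complex and itself a common MLL fusion partner. It was 15.36, 15.09 and 15.34 in the KO arrays, against 15.48, 15.58, 15.57, 15.56 and 15.52 in the WT arrays. All 3 KO arrays lay below all 5 WT arrays, and WT array 3 lay among the other WT arrays here. The KO mean was 15.26 ± 0.15 (SD, n = 3), against a WT mean of 15.54 ± 0.04 (SD, n = 5). The difference of -0.28 had an exact two-sided permutation p of 0.0179, the lowest value possible with 56 splits, and limma gave an unadjusted p of 0.137 and an adjusted p of 0.999. Without WT array 3 the difference was -0.27. The gene was chosen for printing by its lack of overlap, and KO arrays wholly below WT were found in 1.52% of all tested genes.

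Mllt1 encodes ENL, a reader of acetylated histones in the same complex and also an MLL fusion partner. It was 11.14, 11.15 and 11.03 in the KO arrays, against 11.52, 11.24, 12.05, 11.20 and 11.35 in the WT arrays. The KO arrays were the lowest of the 8, by a margin smaller than the spread within WT, and WT array 3 was the highest. The difference was -0.37 (exact two-sided permutation p = 0.107; limma adjusted p = 0.999) and -0.22 without WT array 3.

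The other elongation genes overlapped between groups. Aff4, a related scaffold, differed by 0.49, or 0.22 without WT array 3, and Ccnt1, the cyclin partner of the P-TEFb kinase, by 0.29, or 0.06 without that array. Brd2, a BET-family reader of acetylated histones, averaged 15.12 ± 0.15 (SD, n = 3) in KO arrays, against 15.23 ± 0.20 (SD, n = 5) in WT arrays.

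**Figure D2:**
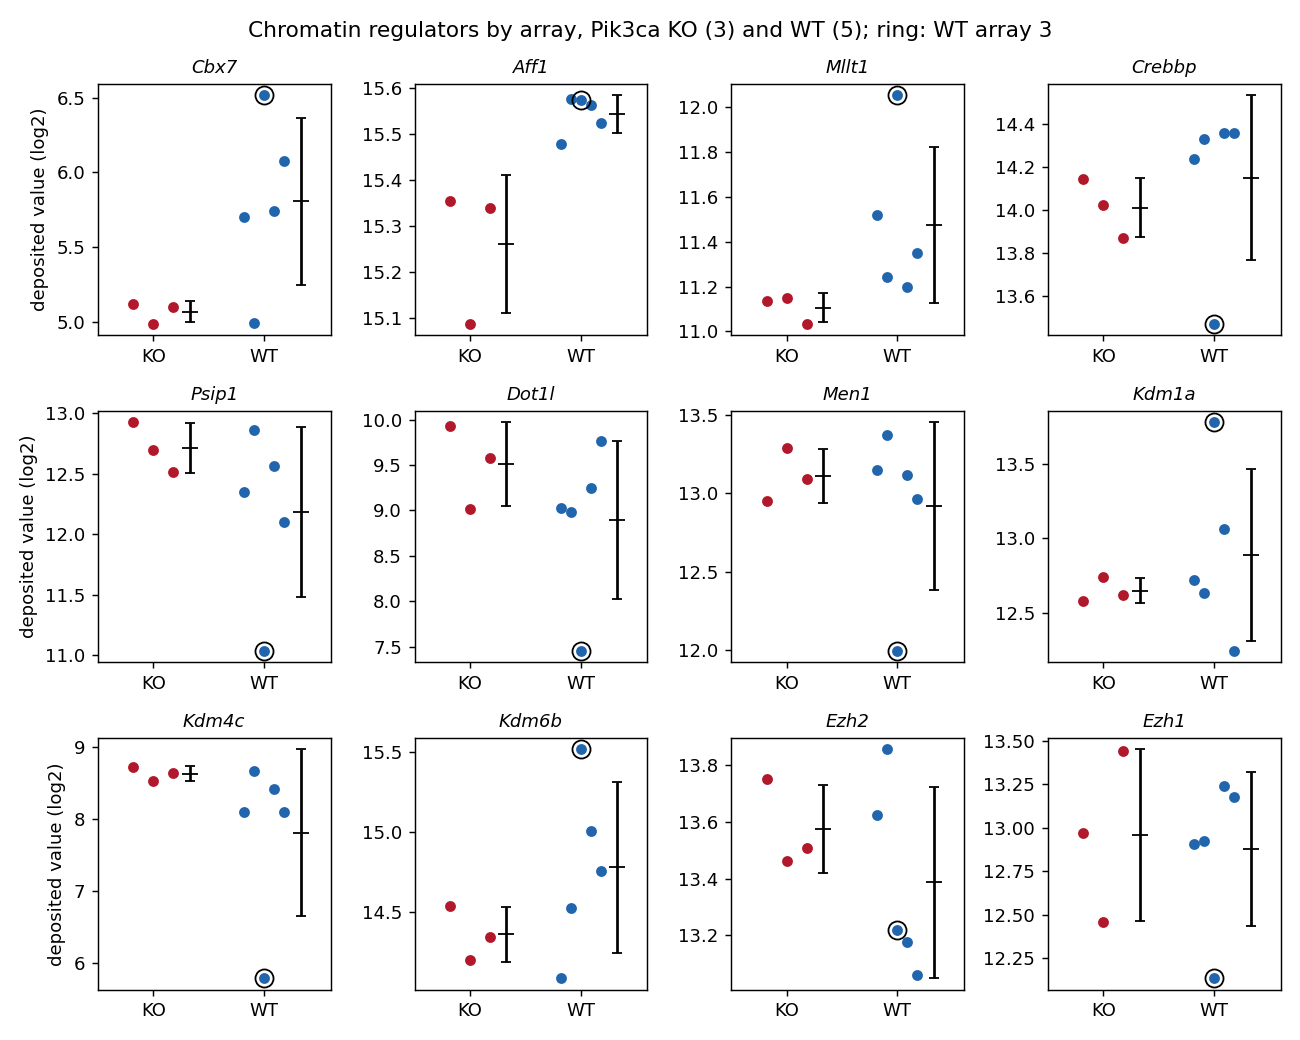
Deposited log2 values of 12 chromatin regulators in each KO array (red, n = 3) and WT array (blue, n = 5), with mean and SD beside the points and a ring on WT array 3. The axes differ between panels and do not start at 0. In Aff1 and Mllt1 the KO points lie below all WT points, and in Crebbp below all but WT array 3.

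LSD1, encoded by Kdm1a, removes methyl groups from histone H3 and works with CoREST, encoded by Rcor1. Kdm1a was 12.58, 12.74 and 12.62 in the KO arrays, against 12.72, 12.63, 13.78, 13.06 and 12.25 in the WT arrays. The KO arrays sat inside the WT range and WT array 3 was the highest. The difference was -0.24, and -0.02 without WT array 3. Rcor1 went the other way on WT array 3, where it was the lowest of the 8 at 10.27, and its difference was 0.11, or -0.20 without it. Neither gene passed.

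The 4 tested subunits of PRC2, which methylates histone H3 to silence genes, showed 0 calls, with 3 differences above 0 and a median of 0.13, and with 2 above 0 and a median of 0.02 without WT array 3. Ezh2, the main catalytic subunit in dividing cells, was 13.75, 13.46 and 13.51 in the KO arrays, against 13.63, 13.86, 13.22, 13.17 and 13.06 in the WT arrays. The groups overlapped, with a difference of 0.19. Ezh1, its paralogue, was 12.97, 12.46 and 13.45 in the KO arrays, against 12.91, 12.92, 12.13, 13.24 and 13.18 in the WT arrays, and the highest value of the 8 was a KO array while the other KO arrays lay inside the WT range. The difference was 0.08, and -0.11 without WT array 3.

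Eed, the subunit that reads the mark, averaged 10.87 ± 0.08 (SD, n = 3) in KO arrays, against 10.59 ± 0.27 (SD, n = 5) in WT arrays. Suz12, the scaffold, was 11.71, 11.33 and 11.50 in the KO arrays, against 12.04, 12.07, 10.88, 11.59 and 11.63 in the WT arrays. The difference was -0.13, and -0.32 without WT array 3, where 1 KO array remained inside the WT range.

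In PRC1, which ubiquitinates histone H2A, 6 of 7 genes were tested and 0 passed, with 4 differences above 0 and a median of 0.07 both with all arrays and without WT array 3. Cbx7 encodes a chromodomain protein that reads the PRC2 mark. It was 5.12, 4.99 and 5.10 in the KO arrays, against 5.70, 4.99, 6.52, 5.74 and 6.08 in the WT arrays. The KO arrays were tightly grouped and level with WT array 2, and the other 4 WT arrays lay above them. The row was dim, above the median transcript row on 0 of 3 KO arrays and on 4 of 5 WT arrays, so it was tested only because WT was brighter and the p-values that follow are not free of that choice. The KO mean was 5.07 ± 0.07 (SD, n = 3), against a WT mean of 5.81 ± 0.56 (SD, n = 5), and the difference of -0.74 had an unadjusted p of 0.0458 and an adjusted p of 0.999 in limma and an exact two-sided permutation p of 0.0893. Without WT array 3 the difference was -0.56 and the unadjusted p 0.0587.

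For the other chromodomain genes of PRC1 the groups overlapped. Cbx8 averaged 9.25 ± 0.27 (SD, n = 3) in KO arrays, against 9.24 ± 0.52 (SD, n = 5) in WT arrays, and its difference was 0.0029, or 0.19 without WT array 3. Cbx2, also dim and above the median row on 2 of 3 KO arrays and 4 of 5 WT arrays, differed by 0.28, or by 0.12 without WT array 3. This value followed single KO arrays and was 0.075, 0.010 and 0.77 without KO array 1, 2 and 3. Bmi1, the ring-finger subunit known for self-renewal of stem cells, was 11.12, 11.53 and 11.39 in the KO arrays, against 11.05, 11.33, 10.89, 11.34 and 10.70 in the WT arrays. The highest 2 values were in KO, but KO array 1 sat inside the WT range, and the difference was 0.28. The ubiquitin ligase genes Rnf2 and Ring1 differed by 0.14 and -0.12, and Ring1 was 5.98 to 7.01 in KO and 6.16 to 6.81 in WT. Kdm2b, which brings a variant PRC1 to CpG-rich promoters, was not tested and lay at 4.50 to 5.42 in KO and 4.62 to 5.63 in WT.

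Of the JmjC demethylases, which remove histone methyl groups with iron and oxoglutarate, 6 of 7 were tested and 0 passed. The differences were above 0 in 4 and below in 2, with a median of 0.13, and above 0 in 3 without WT array 3, with a median of -0.07. Kdm4c, an eraser of a repressive mark, was 8.72, 8.52 and 8.64 in the KO arrays, against 8.09, 8.66, 5.79, 8.41 and 8.10 in the WT arrays. WT array 3 was far below the other 7, which spanned 8.09 to 8.72. The difference was 0.82, the highest of the list (exact two-sided permutation p = 0.268), and 0.31 without WT array 3.

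Kdm6b, which erases the PRC2 mark, was 14.53, 14.20 and 14.34 in the KO arrays, against 14.08, 14.52, 15.51, 15.01 and 14.76 in the WT arrays. WT arrays 3, 4 and 5 lay above all KO arrays and WT array 1 below them. The difference was -0.42 (exact two-sided permutation p = 0.268), and -0.23 without WT array 3. Jmjd1c, described as needed by several leukaemias, differed by 0.19, or 0.0054 without WT array 3. KO array 1 carried its highest value, 13.55, and without that array the difference was -0.12.

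Kdm4a differed by 0.12, Kdm5b by -0.20 and Kdm5a by 0.15, and the difference of Kdm5a, which was 3.35 on WT array 3, was -0.34 without that array. Kdm4b was below the median row on all 8 arrays, at 4.53 to 4.78 in KO and 4.38 to 5.13 in WT, and was not tested. Of the other methyltransferases, Setdb1, which lays down a repressive mark at transposable elements, averaged 9.36 ± 0.23 (SD, n = 3) in KO arrays, against 8.71 ± 1.23 (SD, n = 5) in WT arrays, a difference of 0.64 that was 0.12 without WT array 3. Setd2, which marks transcribed gene bodies, differed by 0.05, or -0.16 without WT array 3.

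The 4 acetyltransferases had differences above 0 in 2 and below 0 in 2, with a median of -0.0077 and 0 passing, and of -0.01 without WT array 3. Crebbp, encoding CBP, was 14.14, 14.02 and 13.87 in the KO arrays, against 14.24, 14.33, 13.47, 14.36 and 14.36 in the WT arrays. The KO arrays lay below WT arrays 1, 2, 4 and 5 and above WT array 3. The difference was -0.14, or -0.31 once WT array 3 was left out. Limma then gave an unadjusted p of 0.0755 and an adjusted p of 0.988. The exact two-sided permutation p was then 0.0286, the lowest value possible with 35 splits. A lack of overlap does not always give that value, as Mllt1 had 0.0571 in the same test without WT array 3. KO arrays wholly below WT were found in 2.92% of all tested genes without WT array 3.

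Ep300, encoding p300, the close relative of CBP, was 11.61, 10.98 and 11.20 in the KO arrays, against 11.14, 10.90, 10.18, 11.16 and 11.14 in the WT arrays. KO array 2 sat inside the WT range, and the difference was 0.36, or 0.18 without WT array 3. Kat6a, encoding MOZ, and Kat7, encoding HBO1, differed by -0.17 and 0.12. ASXL proteins are cofactors of the BAP1 deubiquitinase, and 0 of 2 passed. Asxl1 was 11.49, 11.89 and 12.02 in the KO arrays, against 11.76, 12.25, 11.09, 11.91 and 12.08 in the WT arrays, with a difference of -0.02, and Asxl2 differed by -0.10. Without WT array 3 these were -0.20 and -0.25.

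WT array 3 stood apart for these genes too. Against the average of the 4 remaining WT arrays, the 40 genes had a median shift of -0.47 on it, and 28 of 40 were below 0. Over all tested genes the shift was -0.13, with 55.5% below 0. On it 11 of the 40, or 27.5%, lay more than 1 below the other WT arrays, against 21.7% of all tested genes, and it held the lowest of the 8 values in 21 of the 40, against 35.5% of all tested genes. Setdb1, Kdm4c and Kdm5a lay furthest below, by -2.63, -2.53 and -2.44, followed by Dot1l at -1.81, Kmt2d at -1.61, Rcor1 at -1.53, Psip1 at -1.44, Aff4 at -1.36, Men1 at -1.16, Ccnt1 at -1.11 and Setd2 at -1.01. Kdm5a was dim, and its 3.35 on WT array 3 lay under the median transcript row of that array, 5.40. Kdm1a alone lay more than 1 above, by 1.11. All 4 PRC2 genes and all 7 MLL-complex genes were below, whereas PRC1 genes were divided, 3 below and 3 above.

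On the other 7 arrays the median shift of the 40 genes was between -0.10 and 0.05. Leaving WT array 3 out turned the sign of 6 tested genes (Kmt2d, Men1, Rcor1, Ezh1, Kdm5a and Setd2), all of them above 0 with it and below 0 without it, and made the difference smaller in 30 of the 40. The median SD of the 40 genes was 0.22 within KO, 0.44 within WT and 0.27 within WT without array 3.

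**Figure D3:**
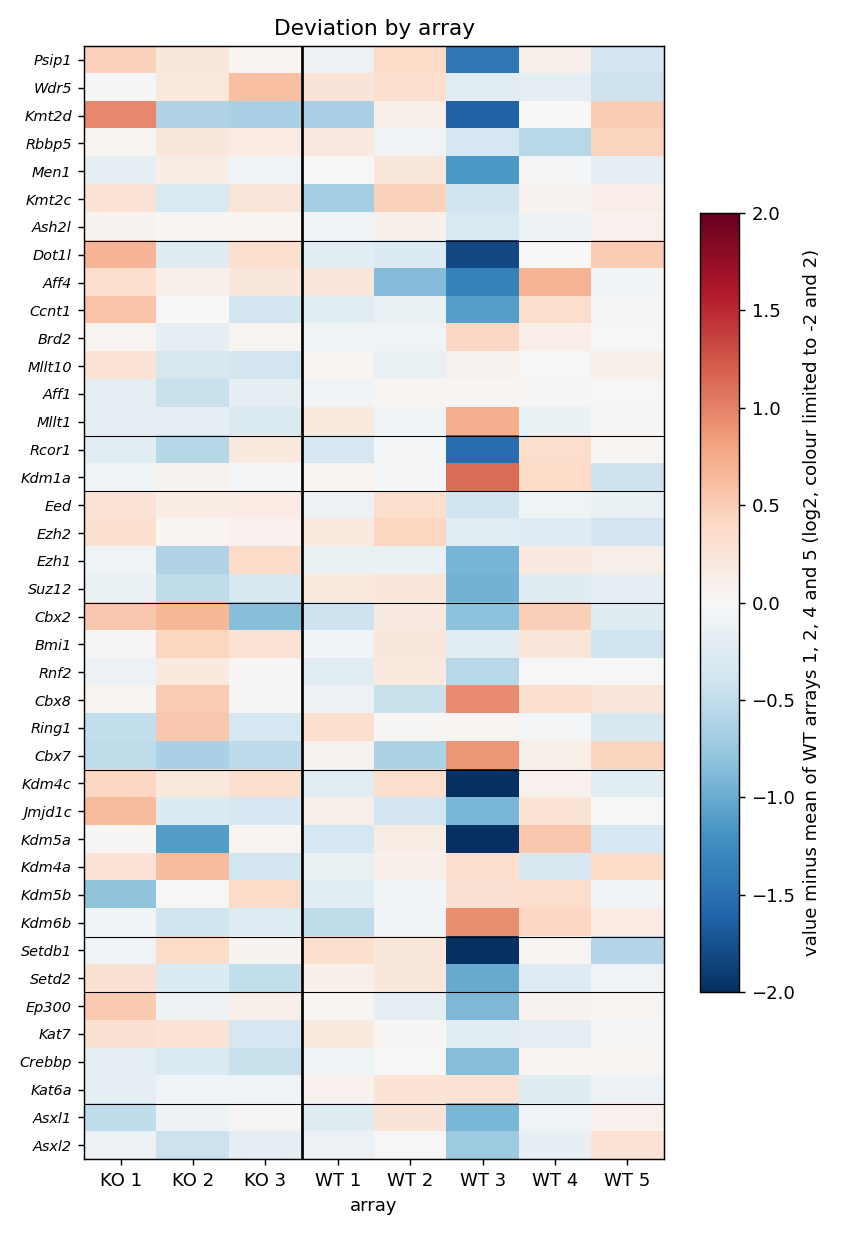
Deviation of each tested chromatin regulator (rows, grouped by role) on each array (columns, KO left of the line and WT right of it) from the mean of WT arrays 1, 2, 4 and 5, in log2 units. WT array 3 is the column with most of the deep colours, blue in Setdb1, Kdm4c, Kdm5a and Dot1l and red in Kdm1a.

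**Figure D4:**
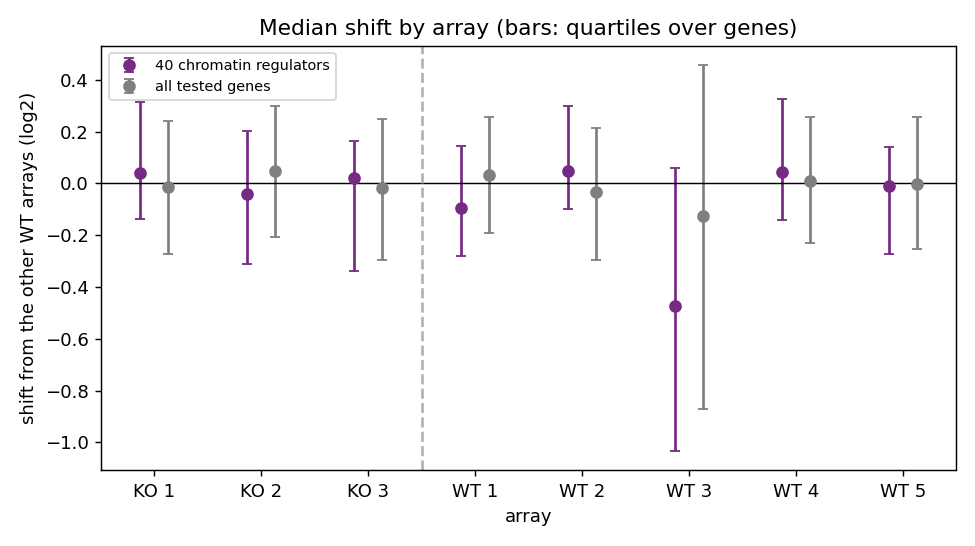
Median shift of the 40 chromatin regulators (purple) and of all tested genes (grey) on each array from the mean of WT arrays 1, 2, 4 and 5, the array itself left out, with bars for the quartiles over genes. The KO arrays lie between -0.04 and 0.04 for the chromatin regulators, and WT array 3 lies at -0.47.

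Further genes of the same complexes were counted in the same fits. Of 101 such genes listed, 92 had a row and 85 were tested, and 0 passed. With all arrays 46 differences were above 0 and 39 below, against 55.7% of all tested genes above 0. The median was 0.01, beside 0.04 over all tested genes. Leaving out WT array 3 gave 37 above 0 and 48 below, against 50.3% of all tested genes above 0. The median was then -0.04, beside 0.0016. Counting those with an unadjusted limma p under 0.05 gave 0 of 85, against 2.86% of all tested genes, and leaving WT array 3 out gave 2 of 85, against 4.69%. Both are named by the rule of an unadjusted p under 0.05. Hcfc1, a subunit shared by MLL-type complexes, differed by -0.50, or by -0.69 in the reduced fit (unadjusted p = 0.0360). Pcgf6, of a variant PRC1, differed by 0.94, or by 0.61 in the reduced fit (unadjusted p = 0.0483), and both had an adjusted p of 0.988 there. The 11 further genes of the MLL-type complexes had 9 differences below 0 and a median of -0.13, where the 7 of the main list were all above 0, and without WT array 3 again 9 of the 11 were below 0.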

How the data were processed

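The authors deposited 1 table of array values taken as log2, 28846 rows by 8 arrays, of which 22206 were transcript rows. Per the labels' protocols, RNA was extracted with a kit for small samples and labelled with biotin. For the software, background correction, normalization, genome build and log base the sources used here give nothing. Symbols came from the platform annotation, whose platform differs from the Affymetrix mouse array named in the design text, and which was hybridised was not settled. Of the transcript rows, 19572 carried a single symbol and 2634 none.

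The values were used without further normalization. Where a symbol had several rows, the brightest on average was used. KO was compared with WT by limma 3.58.1 in R 4.3.3 (lmFit and eBayes, two-sided) over 10293 genes, with Benjamini-Hochberg adjustment and a threshold of 0.05. Single genes also had an exact permutation test over 56 splits (35 without WT array 3), which is not adjusted. Values in every array are given for the 6 genes with the smallest unadjusted p with and without WT array 3, those without overlap, and a core set, with Kmt2d added after its values were seen. The genes, lists and tests were chosen with earlier results of these data known. The fit was run on simulated data with independent noise and no outlying array, so that run does not show how small a difference it would find in these values. No 2 arrays were duplicates, since the closest pair differed by a root mean square of 0.487. The number of arrays limits the precision. Alternatives were filters on dim rows, normalization, eBayes with trend, array weights, a replicate block, the row kept per symbol and leaving out each array. Figures were drawn with matplotlib 3.10.9.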

Additional observations from a re-analysis of the deposited data

Results flagged for a closer look

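In the 5 WT arrays, the values of the 42 genes and the median shift of the list, 43 in all, were searched for an array whose gap to its nearest neighbour took up most of the range of the group. Of these, 4 were found, and all 4 were low values of WT array 3. The limit was a gap of 0.71 of the range, which chance gives in about 1 in 20 of the values searched. The median shift is drawn from the same genes, and WT array 3 was already known to stand apart. The count of 4 was not tested against that rate, and no conclusion is drawn from it. Kdm4c was 5.79 on WT array 3, while the KO arrays were 8.52 to 8.72 and the other WT arrays 8.09 to 8.66. Crebbp was 13.47 there, while the KO arrays were 13.87 to 14.14 and the other WT arrays 14.24 to 14.36. Ep300 was 10.18, while the KO arrays were 10.98 to 11.61 and the other WT arrays 10.90 to 11.16. The median shift of the 40 tested genes was -0.47 on WT array 3, against -0.10 to 0.05 on the other WT arrays. The 3 KO arrays were too few to search.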

How the results depend on the processing

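Under all 17 alternatives limma called 0 genes of the list and 0 of all genes. The number of listed genes at an unadjusted p under 0.05 was 1 with all arrays, against 2.86% of all tested genes. It was 0 with the stricter filter on dim rows, where Cbx7 was not tested. It was 2 with eBayes with trend and robust (Cbx7 and Aff1) and 0 with the replicate block. The shares of all genes under these alternatives were not counted, so nothing is read from those counts. With 1 array left out the number was 0 to 1, and 1 only without WT array 2, against 2.96% of all genes. That gene was Cbx7 (unadjusted p = 0.00657), which passed the filter only through WT, and WT array 2 is the WT array level with KO. The number without overlap was 2 to 5 with 1 array left out, where the share of all genes was 4.78% to 9.41%. A difference over 1 was found for Kdm4c without WT array 2 (1.03) and, with the replicate block, for Kdm4c (1.11) and Dot1l (1.02). In the block fit WT arrays 4 and 5 have no KO array of their number and do not inform the difference. WT array 3 does, and it held 5.79 for Kdm4c and 7.45 for Dot1l. In the fit that left it out their differences were 0.31 and 0.25. The median difference of 0.12 was -0.0059 without WT array 3 and 0.05 with array weights. Of 708 values of single genes under the alternatives, 666 kept their direction and 42, in 16 genes, did not, and the cause was not tested. With array weights the difference was -0.016 for Men1, -0.16 for Rcor1, -0.090 for Ezh1, -0.26 for Kdm5a and -0.097 for Setd2. With quantile normalization it was -0.050 for Cbx8 and -0.0076 for Setd2. With 1 array left out the differences ranged from -0.0003 to 0.34 for Kmt2c, -0.30 to 0.50 for Kmt2d, -0.038 to 0.31 for Men1, -0.20 to 0.29 for Rcor1, -0.16 to 0.33 for Ezh1, -0.43 to 0.079 for Ring1, -0.16 to 0.19 for Cbx8, -0.31 to 0.14 for Kdm2b, -0.11 to 0.40 for Kdm4a, -0.067 to 0.12 for Kdm4b, -0.34 to 0.53 for Kdm5a, -0.46 to 0.13 for Kdm5b, -0.12 to 0.36 for Jmjd1c, -0.19 to 0.22 for Setd2, -0.20 to 0.14 for Asxl1 and -0.25 to 0.0046 for Asxl2. Cbx2, Cbx7, Kdm2b, Kdm4b, Kdm5a and Kdm5b lie near the median row, where signal over background limits what can be seen.

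With the replicate number as a block, 0 listed genes were at an unadjusted p under 0.05, where the share of all genes was not counted. The difference was then 0.10 for Asxl1 and 0.035 for Asxl2. Whether the numbers pair the arrays was not tested. The deviations of same-numbered arrays correlated at 0.02, -0.01 and 0.14 for replicates 1, 2 and 3. Replicates 1 and 2 correlated better with another number, at up to 0.14 and 0.11, whereas replicate 3 reached only -0.01 with another number.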
